A study of Mus musculus with 4 samples.

Results

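Arg1-positive lung macrophages are cells that carry transcripts of the complement genes C1qa, C1qb and C1qc together with Arg1, which encodes arginase 1. They were chosen by a rule on single cells from the CD45-positive libraries of tumour-bearing lungs. A cell entered with at least 2 of the 3 C1q genes detected, Arg1 detected, fewer than 2 of the 4 alveolar macrophage genes Krt79, Ear1, Fabp1 and Marco detected, and none of Cd3d, Cd3e, Cd79a and Cxcr2 detected, which mark T cells, B cells and neutrophils. Detected means at least 1 UMI, a molecule counted by its barcode. The rule found 74 members among 15023 CD45-positive barcodes and 25315 barcodes in all 4 libraries. Of the members, 8 came from the 0 Gy library and 66 from the 4 Gy library.

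The mice were female C57BL/6 animals, 8 weeks old, that received 150000 HKP1 cells through the tail vein. HKP1 is a mouse lung adenocarcinoma line without p53, which forms tumours in the lung after injection. Mice were grouped by bioluminescence on day 6 and then either mock-irradiated (0 Gy) or given 4 Gy on each of 3 days, from day 10 to day 12, and lungs were taken 24 to 48 hours after the last dose. Both groups carried tumours, lungs of 4 mice were pooled per treatment, and each dose and sort gave 1 library, so that no difference between doses has a replicate check. In what follows, intervals cover counting error only, which leaves out the spread between mice, and no test was made.

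Arginase 1 splits arginine into ornithine and urea. It competes for arginine with the inducible nitric oxide synthase Nos2, and ornithine feeds the synthesis of polyamines and proline. In macrophages, Arg1 is known as a gene induced by interleukin 4, by lactate and low oxygen, and by the uptake of dying cells, and Arg1-expressing macrophages of tumours are known for limiting T cells by using up arginine. C1q, the first component of the classical complement pathway, is made in the lung mainly by macrophages.

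Arg1 lies on chromosome 10 from 24915221 to 24927484 on the minus strand (GRCm38, GENCODE vM21), and the 3 C1q genes lie side by side on chromosome 4 between 136880129 and 136898803. The members held 118161 UMIs at 0 Gy and 657618 at 4 Gy, with medians of 13182 and 9261.5 UMIs a cell. The CD45-positive libraries held 24045901 and 36423571 UMIs in 5415 and 9608 barcodes. They shared 10 barcode sequences, none of them a member. Scrublet, a doublet caller, marked 6.33% of barcodes at 4 Gy. At 0 Gy its own cutoff marked 0.203%, so the 4.34% of barcodes with the highest scores were marked instead. At both doses 0 members were marked. Of 6 and 64 cells that met the rule except for a T cell, B cell or neutrophil gene, 0 and 4 were marked, so the call may miss doublets.

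The label of a lung macrophage was checked on marker lists. All 9 macrophage genes had UMIs in the members of both libraries, and their sum was 36323 CPM (UMIs of a gene scaled to a class total of 1e6) at 0 Gy and 32253 CPM at 4 Gy, against 1787 and 1811 CPM in B cells of the same libraries. Of 10 alveolar macrophage genes, of which the rule limits 4, 3 had UMIs in the members at 0 Gy and 6 at 4 Gy, and Siglecf and Plet1, which the rule does not use, were at 0 in both. The list summed to 59.2 CPM (7 UMIs) at 0 Gy and 698 CPM (459 UMIs, mostly Marco and Chil3) at 4 Gy, against 316 and 517 CPM in Arg1-negative macrophages. Its part in the results was not tested. Among interstitial macrophage genes, Lyve1 and Cd163 were at 0 in both, while the antigen presentation gene H2-Aa was at 5086 and 4279 CPM. Markers of basophils and eosinophils were at 0 in every member, and those of fibroblasts had 0 and 1 UMI. The neutrophil list stood at 110 and 116 CPM in the members and at 138 and 125 CPM in Arg1-negative macrophages. Natural killer genes, led by Gzma, had 87 UMIs at 4 Gy, of which 2 cells held 74, and these 2 cells had 2 Arg1 UMIs each. The classical monocyte list moved with the members: it summed to 2581 and 4858 CPM in them and to 1455 and 2112 CPM in Arg1-negative macrophages. In the members most of that sum was Fn1, which is on the list, while the monocyte gene Ly6c2 was at 0 CPM at 0 Gy and at 48.7 CPM at 4 Gy in the members, against 45.5 and 126 CPM in Arg1-negative macrophages. Other genes of the list went the other way. With each cell thinned to 1000 UMIs, Ccr2 was detected in 39.7% of members and 21.6% of Arg1-negative macrophages at 4 Gy. At 0 Gy it was detected in 37.5% and 23.3%, and the intervals overlapped at both doses. Chil3 was higher in the members at 4 Gy and lower at 0 Gy. The part of monocytes in the results below was not tested.

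The first question was how many of these cells the CD45-positive fraction held at each dose. Members made up 8 of 5415 barcodes at 0 Gy, a share of 0.148% (exact 95% binomial interval 0.0638% to 0.291%), and 66 of 9608 at 4 Gy, a share of 0.687% (0.532% to 0.873%). The ratio of 4 Gy over 0 Gy was 4.65 (2.23 to 11.2). Arg1-negative macrophages, which met the same rule except that Arg1 was not detected, made up 1.20% (65 cells) and 1.14% (110 cells), a ratio of 0.954 (0.696 to 1.32). Cells with at least 2 alveolar macrophage genes made up 0.240% (13 cells) and 0.271% (26 cells). The ratio of this last class was 1.13 (0.559 to 2.39), so that both other intervals included 1 and that of the members did not. Arg1 was not confined to the members, as it was detected in 41 of 5415 barcodes at 0 Gy and 262 of 9608 at 4 Gy. Of these barcodes, 24 and 116 had no C1q gene, among which 1 and 18 held at least 10 Arg1 UMIs. Whether the higher share at 4 Gy is particular to the members was not tested.

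**Figure D1:**
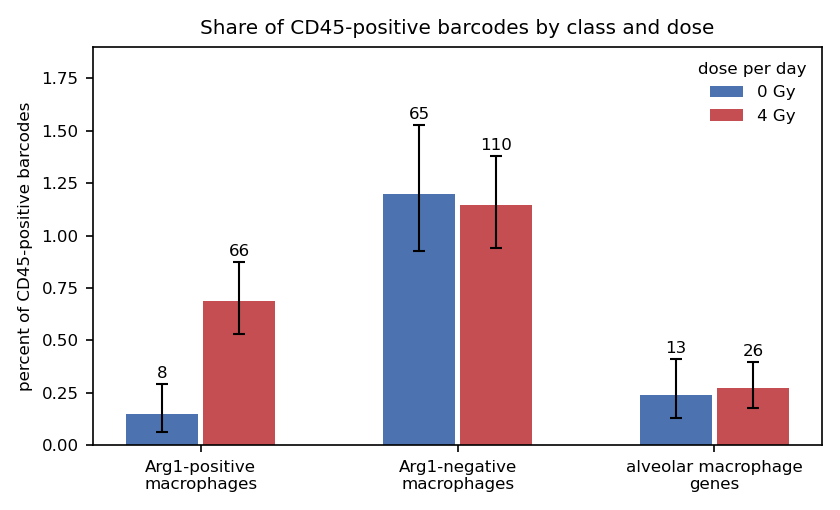
Share of CD45-positive barcodes (percent, y axis) in 3 classes of macrophage at 0 Gy and 4 Gy, 1 library each. Bars are shares, whiskers exact 95% binomial intervals of counting error, and numbers over the whiskers count cells; the Arg1-positive bars stand at 0.148% and 0.687%, the Arg1-negative bars at 1.20% and 1.14%.

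Among all macrophages of the rule, with or without Arg1, members were 8 of 73 cells at 0 Gy (11.0%, 4.85% to 20.5%) and 66 of 176 at 4 Gy (37.5%, 30.3% to 45.1%). The gap was also seen at equal depth. With every cell thinned to 1000 UMIs, Arg1 was detected in 5 of 68 macrophages at 0 Gy (7.35%) and in 39 of 160 at 4 Gy (24.4%), with 5 and 16 shallower cells left out. Thinned to 5000 UMIs, the shares were 13.5% of 52 cells and 35.3% of 139 cells. In B cells, which should lack Arg1, it was found in 0.0475% and 0.203% of cells thinned to 1000 UMIs from median depths of 2844.5 and 2371 UMIs.

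The exclusion of lymphocyte and neutrophil genes also took more cells at 4 Gy. Of 16 and 131 barcodes with at least 2 C1q genes and Arg1, 6 and 64 were left out for carrying Cd3d, Cd3e, Cd79a or Cxcr2, and 2 and 1 for alveolar genes. The cells left out for lineage genes were deeper, with medians of 13508.5 and 15030.5 UMIs, and held 1633 and 1593 CPM of Arg1. Just inside the rule, 1 and 8 members had a single Arg1 UMI, and 1 and 6 had exactly 2 C1q genes. Just outside it, 1 and 6 cells had Arg1, only 1 C1q gene and none of the genes that exclude a cell.

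Within the members, Arg1 itself ranged widely. The 8 members at 0 Gy held 1 to 23 Arg1 UMIs with a median of 7, and the 66 at 4 Gy held 1 to 126 with a median of 8.5. Per cell this was 48.3 to 1970 CPM with a median of 704 at 0 Gy, and 46.0 to 13046 CPM with a median of 1386 at 4 Gy. The ranges overlapped, and the upper end at 4 Gy lay far above every 0 Gy cell. Over the summed UMIs, Arg1 was at 702 CPM at 0 Gy and 2083 CPM at 4 Gy, a ratio of 2.97 (2.38 to 3.75). Members held 18.9% and 32.8% of all Arg1 UMIs of their libraries. As Arg1 chose the cells, these levels are a description. The C1q genes, also part of the rule, were close at both doses: C1qa, which encodes the A chain of C1q, was at 3157 and 3306 CPM.

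**Figure D2:**
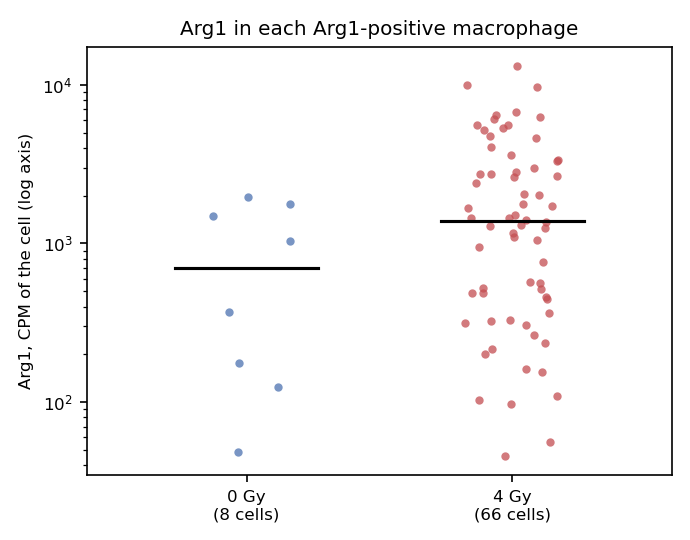
Arg1 level of each member (CPM of the cell, log axis) at 0 Gy (8 cells) and 4 Gy (66 cells). Each point is a cell and each line the median, 704 and 1386 CPM; points are spread sideways only to keep them apart.

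The second question was what else set the members apart from Arg1-negative macrophages of the same library. UMIs were summed over the cells of a class, and a gene was compared where both classes together held at least 30 UMIs. It is called higher or lower where the CPM, each raised by 10, differed at least 1.5-fold. At 0 Gy, 13.5% of 3330 genes were higher and 18.9% lower in the members, and at 4 Gy 7.02% of 6225 genes were higher and 5.54% lower. In both libraries 101 of 3321 genes (3.04%) were higher and 76 (2.29%) lower. The 2 libraries hold different mice. Since Arg1 divides the classes, these comparisons describe the division. The members had more UMIs a cell than Arg1-negative macrophages, whose medians were 7252 at 0 Gy and 8328 at 4 Gy, and the part of depth in a single gene was not tested beyond the thinned shares below.

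The list with the most genes higher in both libraries was hypoxia and glycolysis, the enzymes that turn glucose into lactate and the genes known to follow low oxygen. Of its measured genes, 17 of 20 were higher in the members at 4 Gy and 12 of 15 at 0 Gy, none was lower, and 11 were higher in both. The median log2 ratio was 0.99 at 4 Gy and 1.15 at 0 Gy, beside 0.01 and -0.06 over all measured genes. Summed over the list, members held 7031 against 3795 CPM at 4 Gy, a ratio of 1.85 (1.77 to 1.94), and 7405 against 3416 CPM at 0 Gy, a ratio of 2.17 (2.0 to 2.35). Without the cell that held most UMIs of each gene in each class, 16 of 20 were higher at 4 Gy, and 8 of 13 were higher and 1 lower at 0 Gy. That setting takes 1 of 8 members at 0 Gy but 1 of 65 Arg1-negative macrophages, and so lowers the members' side by its construction.

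Tpi1, which encodes the glycolytic enzyme triosephosphate isomerase, was at 643 CPM in members and 197 CPM in Arg1-negative macrophages at 0 Gy, and at 575 and 253 CPM at 4 Gy. Its ratios were 3.26 (2.40 to 4.43) and 2.27 (1.93 to 2.68), and it was detected in 8 of 8 and 56 of 66 members. Ldha, the lactate dehydrogenase subunit that makes lactate from pyruvate, was at 1024 against 394 CPM at 0 Gy and at 931 against 552 CPM at 4 Gy. Slc16a3, the transporter that exports lactate, stood at 118 against 70.1 CPM at 0 Gy and 216 against 54.5 CPM at 4 Gy, where the ratio was 3.96 (2.86 to 5.55). The glucose transporter Slc2a1 had ratios of 3.04 (1.54 to 5.85) and 2.51 (1.75 to 3.65). These 4 genes, for glucose entry, glycolysis, and the making and export of lactate, were among the 11 higher in both libraries, although the 0 Gy interval of Slc16a3, 0.844 to 3.20, included 1. Vegfa, a growth factor for blood vessels, was at 186 against 18.9 CPM at 0 Gy and 65.4 against 27.3 CPM at 4 Gy. Mif, a cytokine also induced by low oxygen, had a ratio of 2.26 in each library. The glycolytic enzyme Pgk1 was higher at 4 Gy only, at 132 against 46.2 CPM, with 67.7 against 66.3 CPM at 0 Gy, from 8 UMIs in the members.

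The core of the DNA element bound by hypoxia-inducible factors, ACGTG, was looked for on both strands of the 250 bases before each start in RefSeq (GRCm38.p6). Of the 17 genes higher at 4 Gy, 15 had a promoter in the table and 9 of these (60.0%) held the motif, or 9 of 22 promoters (40.9%). Over all promoters of this length the share was 5444 of 32851 (16.6%). Over all 20 measured genes of the list, 10 of 18 genes with a promoter (55.6%) held it, or 11 of 28 promoters (39.3%). These shares were close to those of the higher genes. The list was chosen to hold genes known to follow low oxygen, so the share over all promoters cannot tell the higher genes apart. The windows of 3 of these genes are shown because they hold 2, 1 and 0 matches, with the motif in capitals (CACGT is the motif on the other strand). Pgk1 lies at chrX:106186850-106187099 on the plus strand, P4ha1, a proline hydroxylase subunit of collagen synthesis, at chr10:59323046-59323295 on the plus strand, and Mif at chr10:75860278-75860527 on the minus strand.
Pgk1: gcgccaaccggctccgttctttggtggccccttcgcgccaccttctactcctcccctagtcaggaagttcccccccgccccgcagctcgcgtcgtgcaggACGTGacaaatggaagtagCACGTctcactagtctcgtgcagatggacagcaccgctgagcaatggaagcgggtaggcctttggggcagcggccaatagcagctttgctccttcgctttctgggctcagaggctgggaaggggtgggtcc
P4ha1: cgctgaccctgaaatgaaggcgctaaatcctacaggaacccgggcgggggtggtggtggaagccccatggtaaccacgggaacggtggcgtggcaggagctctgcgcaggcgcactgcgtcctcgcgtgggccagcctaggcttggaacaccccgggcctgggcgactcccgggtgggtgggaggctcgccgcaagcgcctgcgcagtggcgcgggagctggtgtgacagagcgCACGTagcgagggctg
Mif: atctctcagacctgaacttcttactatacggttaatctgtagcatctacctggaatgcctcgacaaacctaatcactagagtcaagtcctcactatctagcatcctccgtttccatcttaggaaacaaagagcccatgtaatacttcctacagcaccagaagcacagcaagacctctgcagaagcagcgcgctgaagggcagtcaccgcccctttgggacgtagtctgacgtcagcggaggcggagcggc
A match describes the letters and does not show binding, and Mif, with no match in this window, was higher in both libraries. P4ha1 was at 93.1 against 54.9 CPM at 0 Gy and at 94.3 against 34.6 CPM at 4 Gy.

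Inflammatory cytokine genes were also higher in the members, in 9 of 14 measured genes at 4 Gy and 4 of 5 at 0 Gy, with none lower. Il1b, which encodes interleukin 1 beta, was at 1267 against 501 CPM at 4 Gy, a ratio of 2.53 (2.26 to 2.83), in 46 of 66 members. At 0 Gy it was at 2124 against 322 CPM, but 1 of 8 members held 74.5% of those UMIs. Il1b is abundant in neutrophils, and 6.06% of B cells had an Il1b UMI after thinning at 4 Gy, against 47.6% of members and 17.5% of Arg1-negative macrophages. Cxcl2, a chemokine that draws neutrophils, was at 251 against 47.2 CPM at 4 Gy and 702 against 45.5 CPM at 0 Gy, in 18 and 3 members. Socs3, an inhibitor of cytokine signalling, was at 319 against 124 CPM at 4 Gy and 567 against 146 CPM at 0 Gy. Srgn, which encodes the proteoglycan serglycin of secretory granules, was at 1983 against 795 CPM and 1430 against 544 CPM. Of these, Srgn was detected in the most members, 62 of 66 and 8 of 8.

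Interferon-induced genes were higher as well. Of type I interferon genes, 14 of 18 were higher at 4 Gy with a median log2 ratio of 0.70, and 5 of 8 at 0 Gy with 0.72, and none was lower. Ifitm3, which blocks the entry of viruses, was at 2454 against 1174 CPM at 4 Gy and 1371 against 798 CPM at 0 Gy. Interferon gamma genes were higher in 10 of 15 and 8 of 12, with Iigp1 lower at 0 Gy. Without the top cell of each gene, the 0 Gy counts were 3 higher and 2 lower of 8 interferon gamma genes, with a median of 0.31 in place of 0.99, and 3 higher and 1 lower of 7 type I genes. Gbp2, a guanylate-binding protein of cell defence, was at 371 against 209 CPM at 4 Gy and 432 against 167 CPM at 0 Gy. Immediate early genes, which respond within minutes to many stimuli, were higher in 13 of 18 and 9 of 16. Their 0 Gy median of 0.61 became -0.33 without the top cell of each gene.

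Matrix genes were led by Fn1, which encodes fibronectin, a matrix protein that macrophages lay down in wounds and tumours. Fn1 was at 3047 CPM in members and 819 CPM in Arg1-negative macrophages at 4 Gy, a ratio of 3.72 (3.42 to 4.05), and at 1591 and 419 CPM at 0 Gy, a ratio of 3.80 (3.11 to 4.64). It was detected in 60 of 66 and 7 of 8 members, and after thinning to 1000 UMIs in 82.5% of members against 25.8% of Arg1-negative macrophages at 4 Gy. In B cells the thinned share was 0.913%. At 0 Gy the thinned counts were 4 of 8 members (15.7% to 84.3%) and 33.3% of Arg1-negative macrophages (21.7% to 46.7%), with overlapping intervals. Thbs1, which encodes the matrix protein thrombospondin 1, was at 479 against 62.9 CPM at 4 Gy, a ratio of 7.61 (5.76 to 10.2), in 34 of 66 members. At 0 Gy Thbs1 stood at 135 against 41.7 CPM, from 16 UMIs in 3 members. The matrix list had 7 of 13 genes higher and 2 lower at 4 Gy, and 4 of 7 higher and 1 lower at 0 Gy.

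**Figure D3:**
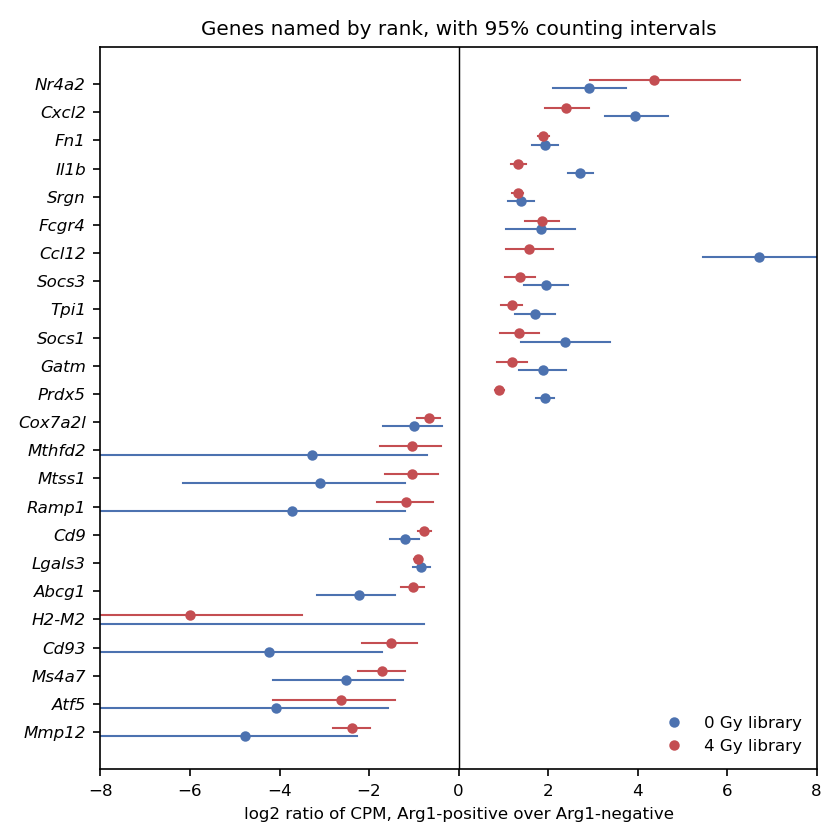
Log2 ratio of CPM, members over Arg1-negative macrophages, for 12 higher and 12 lower genes ranked by the smaller of both libraries' interval bounds, at 0 Gy and 4 Gy. Bars are exact 95% counting intervals, drawn to 8 on either side, and H2-M2 has no point at 0 Gy because members held none of its UMIs; Fn1 sits at nearly the same place in both libraries.

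Genes of alternative activation, the state that interleukin 4 induces and in which Arg1 is best known, were split at 4 Gy: 7 of 14 were higher and 3 lower. Ccl24, a chemokine for eosinophils, was at 976 against 190 CPM, a ratio of 5.14 (4.35 to 6.10), in 32 of 66 members. Tgm2, which encodes a crosslinking transglutaminase, was at 531 against 133 CPM, a ratio of 3.98 (3.24 to 4.92), in 51 members. Ccl17, a chemokine for T cells, was at 83.6 against 429 CPM, and Mgl2, a lectin, at 193 against 400 CPM. The mannose receptor gene Mrc1 was at 126 against 124 CPM. At 0 Gy, of 9 measured genes, Fn1 was higher, Chil3 and the transcription factor gene Klf4 were lower, and the median log2 ratio was -0.23. In the arginine and polyamine list, Nos2, the enzyme that competes with arginase, was at 53.2 against 2.10 CPM at 4 Gy, from 35 UMIs in 5 members, and Sat1, which breaks down polyamines, was at 324 against 585 CPM.

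At 4 Gy, but not as a list at 0 Gy, genes of lipid-laden and lysosome-rich macrophages were lower in the members. This state is known from fat tissue, plaques and tumours and is marked by Spp1, Trem2 and Gpnmb. At 4 Gy 15 of 21 were lower and 1 higher, with a median log2 ratio of -0.77, and at 0 Gy 4 were lower and 4 higher, with -0.08. The 0 Gy median was -1.36 with at least 2 Arg1 UMIs required and -1.47 without the top cell of each gene. Lgals3, which encodes galectin 3, was at 1983 against 3714 CPM at 4 Gy and 2209 against 3933 CPM at 0 Gy, with ratios of 0.534 (0.501 to 0.569) and 0.562 (0.492 to 0.639). Cd9, a tetraspanin, had ratios of 0.589 (0.530 to 0.654) and 0.433 (0.346 to 0.538). Mmp12, the macrophage elastase, was at 86.7 against 454 CPM at 4 Gy and at 8.46 against 231 CPM at 0 Gy. These 3 genes and Ctsk, a collagen-degrading cathepsin, were lower in both libraries. Abcg1, which exports cholesterol, was at 249 against 505 CPM and 110 against 515 CPM. Ctsd, a lysosomal protease, was lower at 4 Gy, at 2025 against 3578 CPM, but not at 0 Gy, at 5239 against 4820 CPM, where 1 member held 79.8% of its UMIs. The lysosome list had 8 of 25 genes lower at 4 Gy. Spp1, which encodes osteopontin, was at 1534 against 1761 CPM at 4 Gy, where it was not among those lower, and at 2327 against 356 CPM at 0 Gy, where it was higher and 1 member held 64.0% of its UMIs.

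Antigen presentation was little different. Of MHC class II genes, 1 of 12 was lower and 1 higher at 4 Gy, with H2-Aa at 4279 against 5059 CPM and 5086 against 5011 CPM at 0 Gy. Among complement and resident macrophage genes, Cfp, which encodes properdin of the alternative complement pathway, was at 593 against 215 CPM at 4 Gy and 355 against 144 CPM at 0 Gy. In this list 5 of 15 genes were higher and 1 lower at 4 Gy. Of 20 lists, 6 had a median beyond 1.5-fold higher in both libraries and 0 lower in both. The 2-fold setting leaves these medians unchanged and is not counted here. Over the 14 other settings, hypoxia and glycolysis kept such medians in 14, inflammatory cytokines in 13 and interferon gamma in 10. Type I interferon and immediate early genes kept them in 9 each, and matrix genes in 7. With cells carrying Cd3d, Cd3e, Cd79a or Cxcr2 kept, hypoxia and glycolysis was the only list with such medians.

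**Figure D4:**
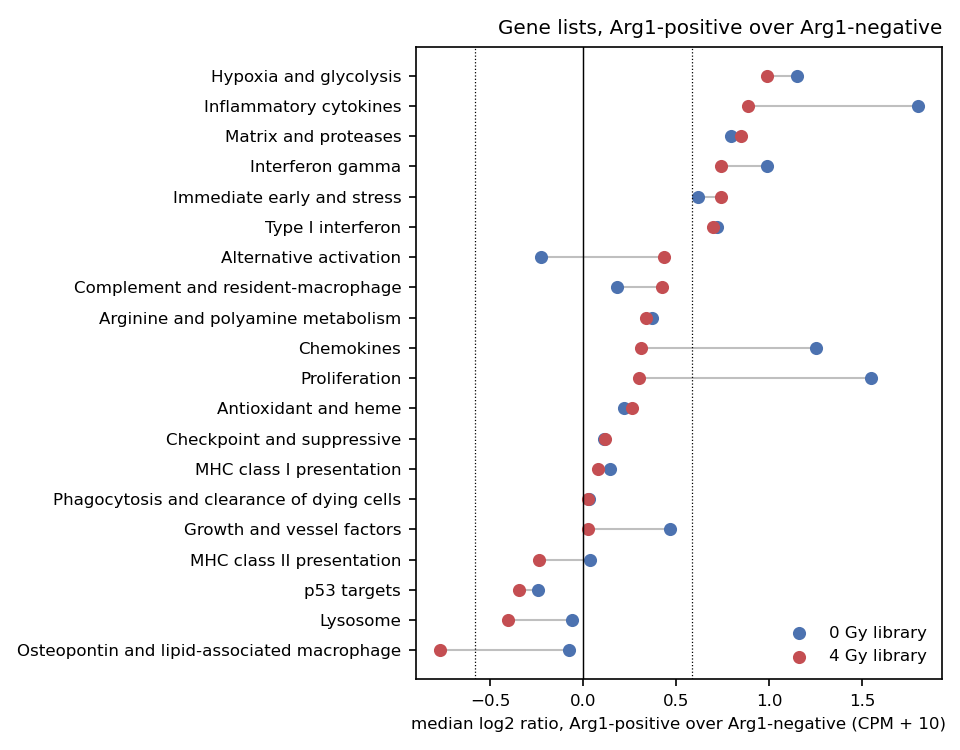
Median log2 ratio (CPM + 10) of 20 gene lists, members over Arg1-negative macrophages, at 0 Gy and 4 Gy; dotted lines mark 1.5-fold. Hypoxia and glycolysis stands at 1.15 and 0.99, and inflammatory cytokines, proliferation and chemokines lie further to the right at 0 Gy, at 1.80, 1.55 and 1.25, than at 4 Gy.

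The third question was whether the members themselves differed between doses. At 4 Gy 19.0% of 3873 measured genes were higher and 10.3% lower than at 0 Gy, against 6.07% of 5968 higher and 5.04% lower in Arg1-negative macrophages. The 0 Gy side rests on 8 cells, in which a measured gene had a median of 10 UMIs. Without the top cell of each gene in each class, the counts of 737 higher and 397 lower genes became 1493 and 54. That setting takes 1 of 8 members at 0 Gy and 1 of 66 at 4 Gy, and so raises the ratios by its construction: under it all 20 list medians were above 0. Both comparisons use the same 2 libraries, so their values are given side by side.

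Ccl24 was at 110 CPM at 0 Gy, with 92.3% of 13 UMIs in 1 of 2 positive cells, and at 976 CPM at 4 Gy in 32 cells, a ratio of 8.87 (5.15 to 16.8). In Arg1-negative macrophages it was at 22.7 and 190 CPM, a ratio of 8.35 (4.66 to 16.5). Fn1 was at 1591 and 3047 CPM, a ratio of 1.92 (1.65 to 2.24), and in Arg1-negative macrophages the ratio was 1.96 (1.68 to 2.28). Both genes thus had nearly the same ratio with and without Arg1. Tgm2 was at 127 and 531 CPM, a ratio of 4.18 (2.50 to 7.55), and in Arg1-negative macrophages at 169 and 133 CPM, a ratio of 0.790 (0.598 to 1.05). Chil3, a chitinase-like lectin, was at 33.9 and 354 CPM from 4 and 233 UMIs, and in Arg1-negative macrophages at 229 CPM at both doses. Ifitm3 had a ratio of 1.79 (1.52 to 2.12) in the members and 1.47 (1.31 to 1.65) in Arg1-negative macrophages.

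Targets of p53, which DNA damage activates, were measured in 7 genes, of which 3 were higher and none lower, where 19.0% of all measured genes were higher. With at least 2 Arg1 UMIs required, 2 were higher and 1 lower. Cdkn1a, the cell cycle inhibitor p21, was at 127 CPM at 0 Gy and 426 CPM at 4 Gy, a ratio of 3.35 (2.0 to 6.07), and at 362 and 530 CPM in Arg1-negative macrophages, a ratio of 1.46 (1.24 to 1.74). At 4 Gy it was detected in 51 of 66 members and at 0 Gy in 5 of 8. The other two were Ccng1, from 2 UMIs at 0 Gy and 40 at 4 Gy, and Mdm2, the ligase that degrades p53, from 5 and 50. Of type I interferon genes, 5 of 12 were higher and none lower. Hypoxia and glycolysis genes were even, with 3 of 19 higher, 3 lower and a summed ratio of 0.95 (0.883 to 1.02).

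In 3 lists the median was beyond 1.5-fold lower at 4 Gy. Proliferation genes were lower in 8 of 9, with a median of -1.80, and all UMIs of Top2a and Ube2c, both of the dividing cell, came from 1 member at 0 Gy. Chemokines were lower in 9 of 17 with a median of -0.66. The osteopontin and lipid list was lower in 12 of 19 with a median of -0.68, which was 0.072 with at least 2 Arg1 UMIs required. Cxcl10, a chemokine for activated T cells, held 324 UMIs at 0 Gy, all in 2 members, and 267 at 4 Gy in 13 members. Gpnmb, a membrane glycoprotein of lysosome-rich macrophages, held 230 UMIs in 2 members at 0 Gy and 142 in 10 at 4 Gy.

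The 8 members at 0 Gy were not alike. Spp1 was at 7967 and 8499 CPM in 2 of them, which were also those with Gpnmb, and at 0 to 313 CPM in the other 6. H2-Aa was at 257 and 145 CPM in this pair and at 2387 CPM or more in the rest. Another pair held all Cxcl10, at 12983 and 4312 CPM, and all Ccl12, a monocyte chemokine. Fn1 ranged from 0 to 8406 CPM.

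At 4 Gy, 5 of 66 members stood apart on 6 genes picked after their values were seen, and they are described without a name or a test. They carried at least 5 of Saa3, an acute-phase protein, Marco, a scavenger receptor, Alox15, a lipoxygenase, Prg4, the lubricant proteoglycan 4, Fcna, a ficolin, and C4b, a complement factor, while the other 61 carried at most 2. At 0 Gy, 1 of 8 members carried 3 of these genes, Saa3, Alox15 and Fcna. The 5 cells held 95.7% of the UMIs of these genes together in the 4 Gy members. Of Fcna they held 77 of 112 UMIs, and 6 other members held 35. Gata6, a transcription factor known from macrophages of the body cavities, was detected in 3 of the 5 and in 0 of 61. Their median Arg1 was 6114 CPM, against 1287 CPM in the other members. H2-Aa was at 370 against 4649 CPM, Cd74, the MHC class II invariant chain, at 1162 against 15078 CPM, Spp1 at 17.6 against 1678 CPM and the monocyte receptor Ccr2 at 17.6 against 566 CPM. Cells with at least 3 of the 6 genes made up 0.148% of CD45-positive barcodes at 0 Gy and 0.177% at 4 Gy, 8 and 17 cells. The Saa3 and Prg4 ratios of 4 Gy over 0 Gy reversed without the members that carry at least 3, at either dose, and Marco, at 0 UMIs at 0 Gy and at least 12.1-fold higher at 4 Gy against a floor of 3 UMIs in the class, came almost wholly from the 5 cells. Without them, 17 of 20 hypoxia and glycolysis genes were higher in members than in Arg1-negative macrophages at 4 Gy.

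**Figure D5:**
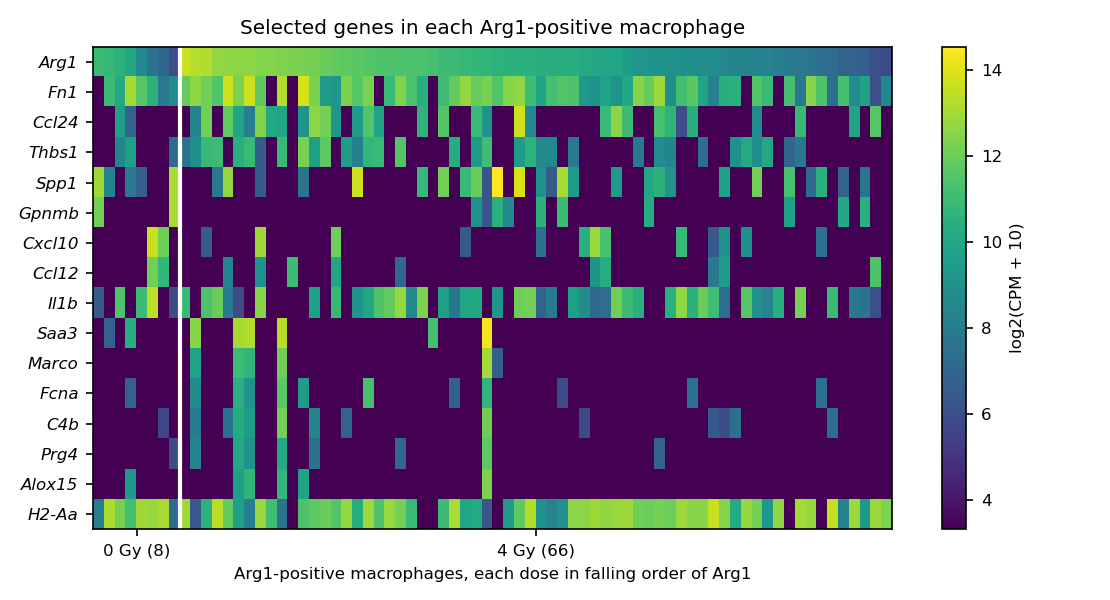
Level of 16 genes (log2 of CPM + 10, colour) in each member, 8 cells at 0 Gy left of the white line and 66 at 4 Gy right of it, each in falling order of Arg1. Fn1 fills most columns, while at 4 Gy Saa3, Marco, Fcna, C4b and Prg4 fill the same 5 columns and Alox15 fills 4 of these. In other 4 Gy columns Fcna reaches at most 2439 CPM, Saa3 2415 CPM, from 1 UMI, and Alox15 915 CPM.

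Ordered by Arg1, the 66 members at 4 Gy were split into 3 groups of 22, with 46.0 to 522, 567 to 2617 and 2655 to 13046 CPM of Arg1. From the lowest to the highest group, Fn1 was at 1613, 2860 and 5405 CPM and Thbs1 at 170, 377 and 1075 CPM. Tgm2 and Ccl24 followed the same order, with Ccl24 at 592, 894 and 1654 CPM. Gpnmb was at 126, 459 and 0 CPM and Spp1 at 474, 2938 and 1075 CPM, without that order. The hypoxia and glycolysis list was at 6069, 6005 and 9899 CPM. Median depths were 9518, 9789 and 6996.5 UMIs, and 4 of the 5 cells with the Saa3 genes lay in the highest group. In these 5 cells Fn1 was at 6232 and Thbs1 at 1444 CPM, against 2746 and 388 CPM in the other 61. The groups were not compared without them. As Arg1 also chose the cells, the order is a description and was not tested. Spp1 was detected in 27 members and Ccl24 in 32, with 13 holding both and 20 neither. Of the 10 members with Gpnmb, 9 also had Spp1.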

How the data were processed

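Single cells of dissociated lungs were sorted as CD45-positive or CD45-negative and profiled with 10x Genomics 3′ libraries, 1 library per dose and sort, per the labels. The deposited tables hold, per cell, log2(CPM + 1) values made by the authors. The submitters' processing notes list STAR, Partek, Seurat and mm10. Their roles and versions, and any removal of doublets, are not given in the sources used here. Whole UMI counts were worked out from these values, since each cell's values are multiples of what 1 UMI is worth, and between 99.9993% and 99.9996% of values came out whole within 0.02.

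Members and gene lists were chosen with earlier results of these data known. The UMIs of all cells of a class in 1 library were added up and scaled to CPM. Ratios carry exact conditional binomial 95% intervals and shares exact Clopper-Pearson ones. With 1 library per group no p-value was computed. Log2 ratios used CPM + 10, genes needed 30 counts over both classes compared, calls needed 1.5-fold, and the floor for 0 was 3 counts per class. Named genes were the members' rule genes, the 12 highest and 12 lowest of each comparison by the interval bound nearer to 1, and the list members with most counts. Other genes of the fixed lists, and the 6 genes of 5 cells, were named after their values were seen. Detected shares were compared after thinning to 1000 UMIs. B cells had Cd79a and Ms4a1, no C1q gene and neither Cd3d nor Cd3e. Doublets were called with Scrublet (scanpy 1.11.5), with numpy 2.4.6, scipy 1.17.1 and pandas 2.3.3. The steps were tested on simulated class totals, drawn without spread between cells. That test cannot show how the intervals or calls hold where 1 cell carries most UMIs of a gene. Other settings are given in the closing section.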

Additional observations from a re-analysis of the deposited data

Results flagged for a closer look

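In the CD45-negative libraries, which entered no comparison, 7 of 4313 barcodes at 4 Gy met the rule of the Arg1-positive macrophages, a share of 0.162% (0.0653% to 0.334%), against 3 of 5979 at 0 Gy (0.0502%, 0.0103% to 0.147%). The ratio was 3.23 (0.738 to 19.4), an interval that included 1.

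Only the 12 highest and 12 lowest genes of 4 Gy over 0 Gy in members were searched for opposite ratios in Arg1-negative macrophages. For 3 of these genes the ratio was beyond 1.5-fold in both classes with opposite signs, and in each case the difference between the classes was not tested. Genes outside these ranks, such as Il1b, Spp1 and Osm, also went opposite ways beyond 1.5-fold. Rgs1, an inhibitor of G-protein signalling, had a log2 ratio of 3.62 in the members, from 1 UMI at 0 Gy and 143 at 4 Gy, and of -0.94 in Arg1-negative macrophages. Cxcl10 had -2.73 in the members, whose 0 Gy UMIs lay in 2 cells, and 1.28 in Arg1-negative macrophages. Ccl12 had -2.68 and 1.61, with the same 2 cells holding its 0 Gy UMIs.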

How the results depend on the processing

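No paired analysis was possible because every group has 1 library. No replicate could be left out for the same reason. The share ratio of 4.65 stayed between 4.16 and 5.23 over its 8 settings, with members also limited to all 3 C1q genes, to at least 2 Arg1 UMIs or to no alveolar gene. Counts of called genes moved with the settings. In the order higher and lower at 4 Gy in members, then higher and lower than Arg1-negative macrophages in both libraries, they were 737, 397, 101 and 76 as reported. They were 86, 58, 13 and 16 thinned to 1000 UMIs, 369, 197, 59 and 31 with 50 CPM added, 1751, 1020, 203 and 188 at a minimum of 10 counts, 163, 85, 40 and 16 at 100 counts, and 318, 98, 26 and 21 at 2-fold. Without the top cell of each gene, chosen after seeing the data like the other single-cell exclusions, they were 1493, 54, 40 and 134, a setting that by construction takes more from the 8 members at 0 Gy than from larger classes. The last count was 120 with at least 2 Arg1 UMIs and 118 with the mean of per-cell CPM. Of 20 lists, 3 had a median beyond 1.5-fold between doses. This was 6 thinned and at 100 counts, 1 at 2-fold and 13 without top cells.

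Of 2170 values of genes and lists, 29 reversed, 570 moved and 1571 did not move, and the cause was not tested. Reversed means a changed sign where the reported value was at least 1.5-fold, and moved means outside its counting interval. Sign changes of smaller reported values are not among the 29. The MHC class II median of 4 Gy over 0 Gy in members, reported at -0.24, for example ranged from -0.41 to 0.53. For 4 Gy over 0 Gy in members, log2 values turned as follows. With no alveolar gene allowed, Saa3 was -3.45 and Prg4 -0.28. With lineage-gene cells kept, Saa3 was -1.02, C4b -0.40, Fcna -0.11 and Prg4 -0.44. Without the cells carrying at least 3 of 6 genes, Saa3 was -0.72 and Prg4 -0.36. Thinned, chemokines were 0.86, Cxcl11 2.06, Syngr1 2.88 and H2afx 1.37. Without top cells, chemokines were 0.96, proliferation 0.96, the osteopontin and lipid list 0.45 (0.072 with at least 2 Arg1 UMIs), Cxcl11 1.15, Ube2c 0.54, Top2a 0.38, H2afx 1.33 and Cx3cr1 2.48. Against Arg1-negative macrophages at 0 Gy without top cells, proliferation was -0.38, chemokines -0.28 (-0.086 thinned), immediate early genes -0.33, Nr4a2 -1.71 and Ccl24 -0.45. At 4 Gy, thinned, Socs1 was -0.14 and Mthfd2 0.032. Depth limits the 0 Gy side most, with 118161 UMIs in 8 cells.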
